A study of Rattus norvegicus with 3 samples.

Results

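Retina that had been given a compound called GSK before an ischemic injury was compared with control retina, to describe what differed from control in the pretreated, injured tissue. All genes with at least 1 CPM (the count relative to the scaled total of its library) in either library were compared, which gave 15401 of the 32883 genes listed, 13303 of them with a gene symbol. The study sequenced RNA depleted of ribosomal RNA of retinas taken from Sprague-Dawley rats on postnatal day 60, with 1 library in each of 3 groups. In the HIOP_GSK group, the compound was injected in the anterior chamber 24 h ahead of the injury, the pressure in the eye was then held at 110 mmHg for 60 min, which stops blood flow to the retina, and tissue was collected 12 h afterwards. The CTL group carries a label saying that it was not treated, while the protocol also speaks of sham eyes in which the needle was placed while pressure stayed at 2.66 kPa. The HIOP group had the same raised pressure and the same 12 h of survival with no compound, and its values stand beside the others for reference. The labels name no eye that received the solvent alone, and neither the nature and dose of GSK nor the number of animals per library was given in the sources used here. No gene deletion or transgene is named for any group.

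The retina needs a steady supply of oxygen, and when blood returns after ischemia the tissue goes through an inflammatory phase. Microglia, Müller glia and vessel cells release chemokines, which draw neutrophils and monocytes out of the blood, and glia switch to a reactive state. Ganglion cells and amacrine cells of the inner retina are known to be the most sensitive neurons, and photoreceptors of the outer retina are fed by the choroid through the pigment epithelium.

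Total deposited counts were 16090064 for CTL, 17221510 for HIOP and 15132754 for HIOP_GSK. Since each group is 1 library, differences could not be set against the spread between replicates, and p-values are left out. Each fold is a ratio of scaled counts, and the range in parentheses is its exact 95% counting interval, which covers counting error only and not the spread between animals. Where a library had no count, the fold is a lower bound taken against a floor of 3 counts per library. Higher and lower refer below to a log2 ratio of CPM, with a prior count of 2, that reached 2-fold. Of 171 named genes that were higher or lower and had a TPM value, 47 had a ratio more than 1.5 times different with the deposited TPM, 45 of them nearer to no difference. In bulk tissue, fewer cells of a type and less RNA per cell cannot be told apart. The labelled tissue was checked by its rod markers, and Sag, the arrestin of rods, was at 3189.9 CPM in CTL, 3106 in HIOP and 3558 in HIOP_GSK. Sag was not typical in its direction, since 16 of 20 rod genes were below CTL in HIOP_GSK. Together the rod genes made up 4.28% of the counts in CTL, 3.78% in HIOP and 2.89% in HIOP_GSK.

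In HIOP_GSK, 1597 genes reached a 2-fold higher level than in CTL, which is 10.4% of the genes compared, and 979 were at least 2-fold lower, which is 6.36%. The remaining 12825 genes, 83.3%, lay within 2-fold. Counts of higher and lower genes in the lists below are to be read against 10.4% and 6.36%. The higher side reached much further: 682 genes (4.43%) exceeded CTL 4-fold or more, 135 (0.877%) lay 4-fold or more below it, and the 5th and 95th percentiles of the log2 ratio were -1.11 and 1.84 around a median of 0.0. In 1054 higher genes (6.84%) and 384 lower genes (2.49%) the whole counting interval lay beyond 2-fold. The HIOP library, set against the same CTL library over the same genes, had 1331 higher genes (8.64%) and 1250 lower genes (8.12%). These genes were kept by their CPM in CTL or HIOP_GSK, so a gene that reached 1 CPM in HIOP alone was left out. Cxcl9, with 3 counts in CTL, 30 in HIOP and 3 in HIOP_GSK, was such a gene. A gene that reached 1 CPM in HIOP_GSK alone stayed in, which makes the 2 sets of numbers uneven. HIOP values of the lists below that lost members to the filter have the same limit. Calls were more frequent among weakly expressed genes. Below a mean of 2 CPM, 23.1% of 1698 genes were higher and 16.7% lower, whereas at 100 CPM and above 4.93% of 2375 genes were higher and 2.44% lower.

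**Figure D1:**
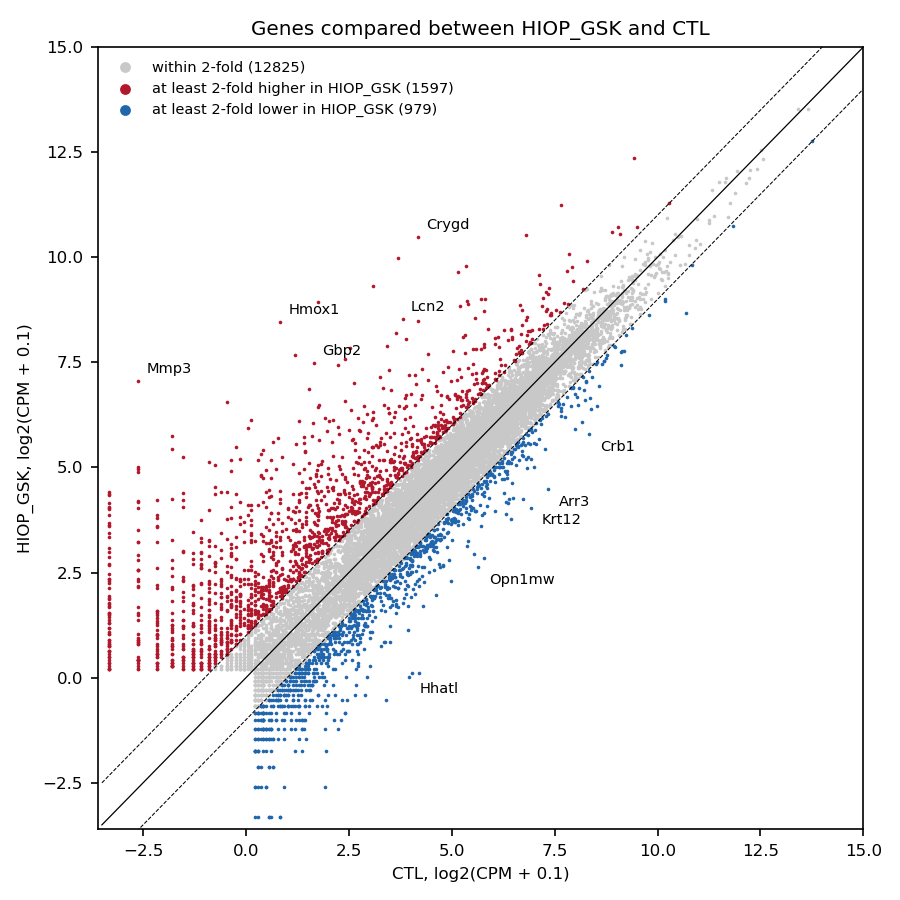
Expression of the 15401 genes compared, as log2(CPM + 0.1) in CTL (x axis) and in HIOP_GSK (y axis); each point is 1 gene, the solid line marks equal values and the dashed lines 2-fold differences. The 1597 higher genes (red) spread much further from the line than the 979 lower genes (blue).

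The genes furthest above control were ranked by the bound of the interval nearer to no difference. Mmp3, a secreted matrix protease, had 1 count in CTL, 4551 in HIOP and 2014 in HIOP_GSK, and its ratio to CTL of 2130.5 had an interval of 382 to 84191. Hmox1, which breaks down heme, stood at 1.68, 213 and 352 CPM in the 3 libraries in that order and was 210.1-fold higher than in CTL (144 to 319). It rests on far more counts than its neighbours in this ranking, 27 in CTL and 5363 in HIOP_GSK. Acod1, the macrophage enzyme that makes itaconate, had 0, 246 and 325 counts and was at least 115-fold higher. Slpi, an inhibitor of neutrophil proteases, was at 0.621 CPM in CTL, 11.8 in HIOP and 94.1 in HIOP_GSK, 151-fold above CTL (82.1 to 317). This group also held S100a8, Ccl2, Orm1, Lilrb4, Clec4d, Il1r2, Cxcl2, Mcemp1, Il1b and Fosl1. Of these 15 genes, 7 had no count in CTL.

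The genes furthest below control included photoreceptor, pigment epithelium and corneal genes. Hhatl had 249 counts in CTL against 12 in HIOP and 14 in HIOP_GSK, which made it 16.8-fold lower (9.83 to 31.2). Arhgef33 had 262, 29 and 15 counts and was 16.5-fold lower (9.83 to 29.9). Crb1, which encodes a polarity protein of photoreceptors and Müller glia, is far more abundant. It stood at 324, 77.5 and 55.6 CPM in the 3 libraries and was 5.83-fold lower than CTL (5.42 to 6.28). Kera, Nat8f3, Folh1, Slc14a2, Opn1mw, Arr3, Krt12, Adamts16, Myo7b and Rrh completed this group together with 2 genes of another pattern. Bpifa6 had 60, 226 and 3 counts, and Aox4 had 23, 48 and 0 counts, so that both were above CTL in HIOP and below it in HIOP_GSK.

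**Figure D2:**
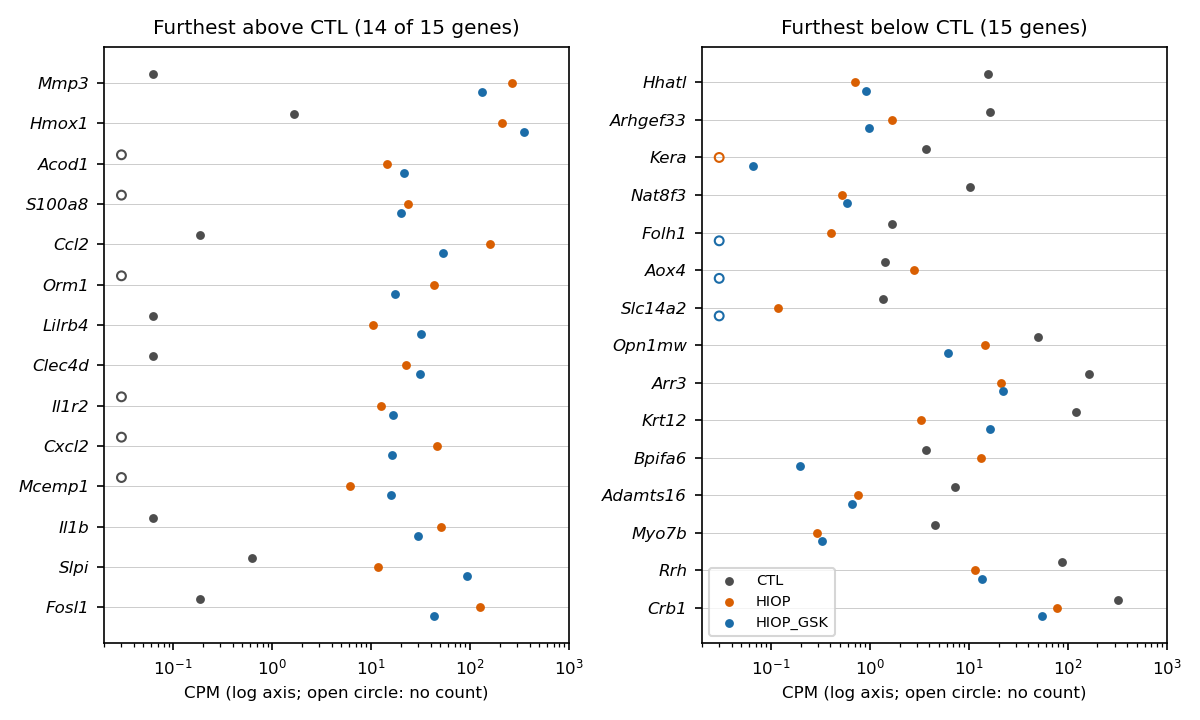
CPM (log axis) in CTL, HIOP and HIOP_GSK of 14 of the 15 genes with the most extreme interval bound above CTL (left) and of the 15 below CTL (right) in HIOP_GSK; each dot is 1 library and an open circle at the left edge means no count. On the left both injured libraries lie far above CTL for every gene, with Slpi at 11.8 CPM in HIOP and 94.1 in HIOP_GSK, and on the right Bpifa6 and Aox4 have their HIOP dot above CTL.

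Chemokines, the secreted proteins that guide leukocytes, remained far above control after pretreatment. Of the 22 listed, 17 passed the filter on low counts and 15 of those were at least 2-fold higher, none lower, with a median log2 ratio of 5.66, or 5.08 with the genes lacking counts in CTL at their bound. A gene with almost no counts in CTL passes the filter only through the injured library. Without the filter, 16 of the 21 members with any count were higher, where 2534 of 21314 genes were higher in the whole comparison. This count has a limit too, since 8 of the 22 listed had no count in CTL and could not be lower. The median was 4.75 with the deposited TPM and 3.48 with a prior count of 10. Ccl2, which attracts monocytes, was at 0.186 CPM in CTL, 161 in HIOP and 53.4 in HIOP_GSK, a ratio to CTL of 287 (97.7 to 1393). The neutrophil attractants Cxcl2 and Cxcl3 had no count in CTL and 247 and 187 in HIOP_GSK, at least 87.1-fold and 65.9-fold higher. Cxcl11, an interferon-induced chemokine, went from 0 to 194 counts, at least 68.4-fold higher. In each of these, HIOP_GSK lay between CTL and HIOP. The 2 kept members that were not higher were Cx3cl1 and Cxcl12. Cx3cl1, the membrane-bound chemokine of neurons, was at 487 counts in CTL, 1403 in HIOP and 504 in HIOP_GSK. Cxcl12, a chemokine made in resting tissue, was 1.67-fold lower than in CTL (1.46 to 1.91).

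The cytokine list behaved alike, with 13 of 14 kept members higher and none lower (median 3.59, or 3.15 at the bounds). That median was 2.93 with no filter, 2.13 with the deposited TPM and 2.14 with a prior count of 10. Without the filter, 15 of 18 members with a count were higher, but 9 of the 22 listed had no count in CTL and could not be lower. Il1b, which encodes interleukin-1 beta, had 1 count in CTL, 868 in HIOP and 451 in HIOP_GSK, a ratio of 477 (85.2 to 18885). Il1rn encodes the natural antagonist of interleukin-1 and stood at 0.435, 26.8 and 35.0 CPM, 80.5-fold above CTL (38.8 to 201). Clcf1, a cytokine of the interleukin-6 family, was at 1.62 CPM in CTL and at 51.6 and 51.7 CPM in HIOP and HIOP_GSK, 32.0-fold above CTL in the latter (21.7 to 49.3). Csf3, the growth factor of granulocytes, had 0, 561 and 30 counts, at least 10.6-fold higher. The cytokines thus differed among themselves in where HIOP_GSK stood relative to HIOP.

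Nuclear factor kappa B is a transcription factor that cytokines and damage signals release into the nucleus, where it switches on chemokine genes. Of its 20 listed regulators and targets, 13 were at least 2-fold higher in HIOP_GSK and none lower (median 1.98, but 1.38 with the deposited TPM and 1.37 with a prior count of 10). Bcl3, a nuclear cofactor of the pathway, was at 1.24, 50.8 and 42.5 CPM in CTL, HIOP and HIOP_GSK, 34.2-fold above CTL (22 to 56.4). Selp, the adhesion molecule P-selectin, had 2, 224 and 69 counts, a ratio of 36.5 (9.73 to 307). Ptx3, a pattern recognition protein, had 8, 1633 and 99 counts, and remained 13.1-fold higher than CTL (6.39 to 31.2). Tnfaip3, an enzyme that shuts the pathway down, was below CTL, at 103, 106 and 63.1 CPM, 1.63-fold lower (1.5 to 1.77).

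Promoter sequences were read for the members that showed these differences, to see whether the known binding motifs lie near their start sites. They are from RefSeq on the GRCr8 assembly, were matched by symbol and cover the 250 bases before each start; of the genes compared, 10594 had one. The motif of nuclear factor kappa B, GGG followed by 2 bases of any kind and TTTCC, was searched on both strands. It occurred in 1.28% of the 27457 promoters in the table, in 1.55% of the promoters of genes compared, and in 23 of 466 (4.94%) of those at least 4-fold higher. Of 67 promoters of genes at least 4-fold lower, none held these letters. Among 13 promoters of kept chemokines 4 held it (30.8%). The motif was not particular to chemokines or to raised genes. It was in 5 of 17 promoters of nuclear factor kappa B genes and in 4 of 16 of antigen presentation genes. Only 1 of 21 promoters of interferon-response genes and 0 of 21 of matrix genes held it. Tnfaip3, which was below CTL, had 2 matches. The 4 chemokine genes attract neutrophils or lymphocytes and were all above control. Their promoters are shown 5′ to 3′ on the gene's strand, with the match in capitals.
Cxcl1, chr14:17479371-17479430, minus strand: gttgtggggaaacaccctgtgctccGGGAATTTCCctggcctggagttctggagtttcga
Cxcl2, chr14:17467275-17467334, minus strand: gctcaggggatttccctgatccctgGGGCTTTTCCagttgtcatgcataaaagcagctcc
Cxcl6, chr14:17596471-17596530, minus strand: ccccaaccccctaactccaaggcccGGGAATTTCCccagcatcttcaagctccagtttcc
Ccl20, chr9:91837045-91837104, plus strand: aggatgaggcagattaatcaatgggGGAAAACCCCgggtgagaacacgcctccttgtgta
These matches start 84, 54, 88 and 89 bases before the start site, and Cxcl1 and Cxcl2 hold 2 matches each, of which 1 is marked. A match describes the letters and shows no binding. Cxcl1 had 4, 2408 and 285 counts in CTL, HIOP and HIOP_GSK, Cxcl6 had 1, 5418 and 273, and Ccl20 had 0, 1143 and 96, so each of them was above CTL in both injured libraries.

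Interferon-response genes, which defend cells against viruses and are also switched on by tissue damage, were higher in HIOP_GSK than in CTL with few exceptions. Of 30 listed genes, all passed the filter, 28 were at least 2-fold higher and none was lower, with a median log2 ratio of 3.03. The same genes had a median of 2.6 in HIOP, against the shared CTL library. Gbp2, a guanylate-binding protein, was at 3.04 CPM in CTL, 341 in HIOP and 179 in HIOP_GSK, 58.9-fold above CTL (44.4 to 79.8). Ifit3 stood at 1.74, 63.2 and 37.8 CPM, 21.7-fold above CTL (14.9 to 33.0), and the antiviral enzyme gene Rsad2 at 2.55, 75.3 and 47.9 CPM, 18.8-fold (13.7 to 26.4). For these 3 genes HIOP was the highest library. Irf7, the master regulator of type I interferon genes, had its highest value in HIOP_GSK, with 2.61, 27.3 and 41.1 CPM, 15.7-fold above CTL (11.5 to 22.1). Zbp1, a sensor of nucleic acids, and Oasl were the 2 members within 2-fold.

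The genes that load peptides onto major histocompatibility complex molecules followed, with 16 of 18 kept members higher and 1 lower (median 1.9; 1.41 in HIOP over the same CTL). Tap1, a peptide transporter, was at 3.67 CPM in CTL, 30.4 in HIOP and 72.5 in HIOP_GSK, 19.8-fold above CTL (15.2 to 26.2). Nlrc5, which activates class I genes, stood at 1.55, 18.9 and 30.9 CPM, a ratio of 19.9 (13.3 to 31.0). The immunoproteasome subunits Psmb9 and Psmb8 were 12.9-fold (8.70 to 19.9) and 12.8-fold higher (7.45 to 24.0). In all 4 genes HIOP_GSK was the highest of the 3 libraries. With the deposited TPM the log2 ratio of Tap1 was 2.72 in place of 4.26, and that of Nlrc5 was 2.83 in place of 4.21. Ciita, the activator of class II genes, was 2.02-fold lower than CTL (1.60 to 2.57) and under the limit with a prior count of 10, although the class II gene RT1-Da had 35, 134 and 138 counts. RT1 genes are a family of close copies, and how reads were shared out among these is uncertain.

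The motif of interferon-stimulated promoters is GAAA, 2 bases of any kind and GAAA again, and on either strand it was present in 3.29% of all promoters, in 2.63% of those of genes compared, in 43 of 466 (9.23%) at least 4-fold higher and in 3 of 67 (4.48%) at least 4-fold lower. In the interferon list 15 of 21 promoters held it (71.4%), and in the antigen presentation list 6 of 16 (37.5%). The following 4 belong to members described above, with the motif in capitals; where it lies on the other strand, the capitals show its complement.
Gbp2, chr2:234005671-234005726, plus strand: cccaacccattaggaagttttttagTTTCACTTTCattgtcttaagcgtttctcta
Ifit3, chr1:241527257-241527316, plus strand: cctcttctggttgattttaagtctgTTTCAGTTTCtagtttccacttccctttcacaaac
Irf7, chr1:205800058-205800117, minus strand: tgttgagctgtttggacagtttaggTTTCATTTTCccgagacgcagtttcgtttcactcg
Tap1, chr20:4668630-4668689, minus strand: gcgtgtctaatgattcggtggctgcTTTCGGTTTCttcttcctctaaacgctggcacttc
These matches begin 31, 44, 69 and 121 bases before the start site. Overlaps between matches of this motif and that of nuclear factor kappa B were found in 2 promoters of the whole table, and in none of the genes at least 4-fold higher.

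In the JAK-STAT3 list, the pathway through which interleukin-6 type cytokines act, 11 of 20 members were higher and none lower (median 1.09). Socs3, its feedback inhibitor, was at 0.994, 101 and 70.1 CPM in CTL, HIOP and HIOP_GSK, 70.5-fold above CTL (43.2 to 124). The receptor gene Osmr was 17.2-fold higher (13.4 to 22.5), and the transcription factor genes Cebpd and Stat3 were also higher, with 90 and 894 counts in CTL and HIOP_GSK for the former and 1627 and 7138 for the latter. Jak3, a kinase of blood cell receptors, was 7.74-fold higher (6.26 to 9.64). Stat5b and Lifr, in contrast, were 1.40-fold (1.29 to 1.52) and 1.16-fold lower (1.09 to 1.24).

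Genes of neutrophils and monocytes were close to absent in CTL and present in HIOP_GSK. All 13 that passed the filter were higher, but they passed it through the injured library. Without the filter 14 of 15 members with a count were higher, but 11 of the 18 matched had no count in CTL and could not be lower. Their median log2 ratio of 6.62 was 5.86 with no filter, 4.55 with the deposited TPM and 4.61 with a prior count of 10. S100a8, a calcium-binding protein that fills neutrophils, had 0 counts in CTL, 405 in HIOP and 306 in HIOP_GSK, at least 108-fold higher. Lilrb4, an inhibitory receptor of myeloid cells, had 1, 178 and 486 counts, a ratio of 514 (91.8 to 20347), and the decoy receptor gene Il1r2 went from 0 to 253 counts, at least 89.2-fold. These genes did not order the injured libraries in 1 way: Lilrb4 and Il1r2 were higher in HIOP_GSK than in HIOP, and S100a8 was lower. The granule enzyme genes Mpo and Elane had 0 counts in CTL and 0 and 8 in HIOP_GSK.

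Microglia and macrophage genes were also above control, with 16 of 23 kept members higher and none lower (median 2.17). In HIOP, against the same CTL, 11 were higher and 4 lower (median 0.97). The genes furthest above CTL are shared by blood monocytes and macrophages. Fcgr2b, an antibody receptor, was at 1.18 CPM in CTL, 18.2 in HIOP and 39.8 in HIOP_GSK, 33.7-fold above CTL (21.4 to 56.3). Itgb2, an integrin of all leukocytes, stood at 1.3, 10.1 and 30.6 CPM, a ratio of 23.4 (15.1 to 38.2). Lyz2, the lysozyme of myeloid cells, was 14.6-fold (12.5 to 17.1) and Ptprc, the pan-leukocyte marker CD45, 16.2-fold higher (11.8 to 22.7). Some markers of resident microglia, picked after their values were seen and with few counts, differed less from control. Tmem119 had 22, 10 and 28 counts in CTL, HIOP and HIOP_GSK, P2ry12 had 32, 7 and 20, Sall1 had 100, 98 and 121, and Cx3cr1 had 64, 27 and 126. Of these, Cx3cr1 alone was 2-fold higher than in CTL.

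Lymphocyte genes were near the floor in all libraries, and only 3 of 15 passed the filter. Without the filter, 5 of 12 members with a count were higher and none lower, but 6 of the 15 had no count in CTL and could not be lower. Lck, a kinase of T cells, had 5 counts in CTL and 25 in HIOP_GSK, 5.29-fold higher (1.99 to 17.7), while Cd3e and Cd3d had 5 and 0 counts in CTL and 2 and 0 in HIOP_GSK. Cd4 was 1.41-fold lower (1.01 to 1.97).

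Complement, a cascade of plasma and tissue proteins that tags targets for phagocytes, had 10 of 15 kept members higher and none lower (median 2.07, against 1.11 in HIOP over the same CTL). C3, its central component, was at 9.94 CPM in CTL, 64.1 in HIOP and 119 in HIOP_GSK, 12.0-fold above CTL (10.2 to 14.2). The receptors for its fragments were higher too, with C5ar1 at 2, 70 and 183 counts, a ratio of 96.8 (26.4 to 805), and C3ar1 at 7, 60 and 133 counts, a ratio of 20.1 (9.49 to 51.0). In all of these HIOP_GSK was the highest library. Cd59, which protects cells from complement lysis, was 1.14-fold lower (1.05 to 1.25).

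**Figure D3:**
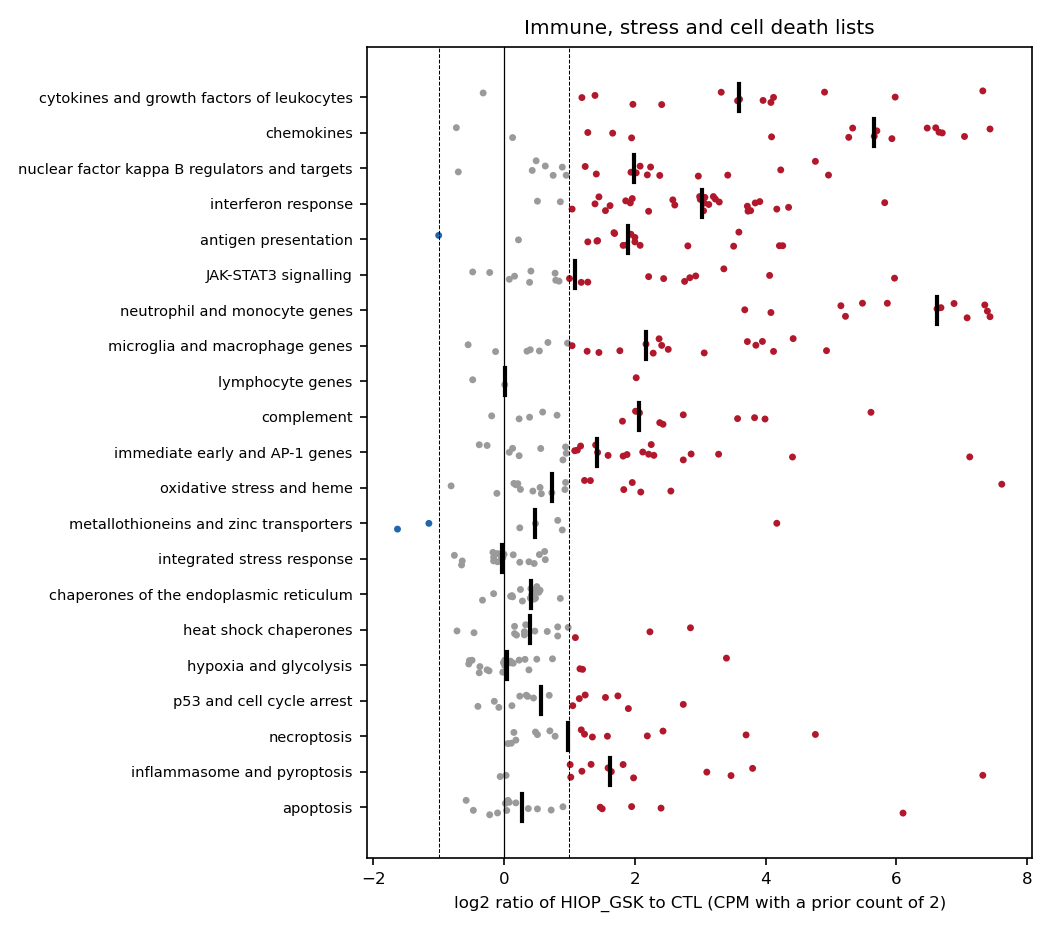
Log2 ratio of HIOP_GSK to CTL (x axis, CPM with a prior count of 2) for the kept members of 21 immune, stress and cell death lists; each dot is 1 gene, red or blue where at least 2-fold higher or lower, the black bar is the list's median and dashed lines mark 2-fold. Chemokines and neutrophil genes reach the largest medians, 5.66 and 6.62, while the integrated stress response and the chaperones of the endoplasmic reticulum stay within 2-fold.

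Of 19 members of the oxidative stress list, 7 were higher and none lower (median 0.73), Hmox1 among them. Ferritin stores iron, and its light chain gene Ftl1 was at 69.9 CPM in CTL, 120.3 in HIOP and 273 in HIOP_GSK, 3.91-fold above CTL (3.66 to 4.17). The heavy chain gene Fth1 had 3930, 8632 and 13250 counts. Nqo1, a target of the oxidative stress regulator Nrf2, was 6.06-fold higher (4.41 to 8.52), and Sod2, the mitochondrial superoxide dismutase, was 4.26-fold higher (3.95 to 4.59). Gpx3, the secreted glutathione peroxidase, was 1.76-fold lower (1.52 to 2.03). Mt2A, a metallothionein that binds zinc, stood at 5.16, 132 and 95.1 CPM, 18.4-fold above CTL (14.8 to 23.3), whereas the neuronal metallothionein Mt3 was 3.24-fold lower (2.11 to 5.13).

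Immediate early genes encode transcription factors that are switched on within minutes of a stimulus, and 17 of 26 were still at least 2-fold above control, none below (median 1.42). Fosl1, a subunit of the AP-1 factor, had 3 counts in CTL, 2172 in HIOP and 656 in HIOP_GSK, a ratio of 231 (78.8 to 1125). Myc was at 1.18, 49.2 and 27.7 CPM, 23.4-fold above CTL (14.8 to 39.3), Maff 10.5-fold (6.82 to 16.9) and Atf3 7.35-fold (6.08 to 8.94). Egr1 was near control in HIOP_GSK, with 2477, 7840 and 2756 counts. Dusp1 and Nr4a2 lay slightly below CTL, at 1.20-fold (1.06 to 1.35) and 1.31-fold lower (1.04 to 1.64).

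The other stress lists differed from each other. None of 18 genes of the integrated stress response (median -0.03) and none of 18 chaperones of the endoplasmic reticulum (median 0.41) differed 2-fold. Hspa5, the main chaperone of that compartment, was at 251, 404 and 354 CPM, 1.41-fold above CTL (1.36 to 1.47). The amino acid synthesis gene Asns was 1.56-fold lower (1.44 to 1.70). Of 16 heat shock chaperones 3 were higher: Hspb1 by 7.40-fold (5.66 to 9.83), Cryab by 4.71-fold (4.54 to 4.88) and Bag3 by 2.15-fold (1.73 to 2.68), the last of them under the limit with the deposited TPM. Cryab is abundant in the lens as well, and lens genes together made up 0.137% of the CTL counts and 1.65% of those of HIOP_GSK; its part in the result was not tested. Of 22 hypoxia and glycolysis genes 3 were higher and none lower (median 0.05), a share near the 10.4% of all genes compared that were higher. Angptl4, a secreted inhibitor of lipoprotein lipase, stood at 1.68, 50.4 and 18.9 CPM, 11.2-fold above CTL (7.57 to 17.4), but Vegfa, the vascular growth factor, was 1.41-fold lower (1.33 to 1.49). In the p53 and arrest list 7 of 16 were higher, including Gadd45g at 6.79-fold (5.60 to 8.27) and the cell cycle inhibitor Cdkn1a at 3.37-fold (2.72 to 4.21).

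Cell death genes differed by pathway. Inflammasomes are protein platforms that activate caspase-1 and interleukin-1, and 12 of 14 listed genes were higher, none lower, with a median of 1.62 (1.02 with a filter at CPM 5), against 7 higher and a median of 0.91 in HIOP over the same CTL. Nlrp3, the sensor of the best-known inflammasome, had 16, 274 and 187 counts in CTL, HIOP and HIOP_GSK, a ratio of 12.4 (7.42 to 22.1). Nlrc4 and Mefv, also sensors, were 10.7-fold (4.95 to 27.7) and 22.6-fold higher (7.38 to 112). The adaptor Pycard had 13, 16 and 48 counts and the pore-forming Gsdmd 52, 59 and 101. In the necroptosis list 8 of 16 were higher (median 0.98). Ripk3, the kinase that starts this form of death, had 6, 92 and 96 counts, 16.9-fold above CTL (7.50 to 47.3), and Casp8, which blocks it, had 17, 46 and 80, 4.98-fold above CTL (2.92 to 8.97). The death receptor gene Tnfrsf1a was 5.44-fold higher (4.60 to 6.46). Mlkl, which carries out necroptosis, had 28, 111 and 83 counts and was also higher than in CTL.

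Apoptosis genes were mostly within 2-fold, with 5 of 18 higher and none lower (median 0.27). Bcl2a1, a survival factor of myeloid cells, went from 0 to 127 counts, at least 44.8-fold, and Bid was 4.17-fold higher (2.46 to 7.44). Fas, a death receptor, had 36, 250 and 65 counts and stayed under the 2-fold limit. Xiap, an inhibitor of caspases, was 1.5-fold lower (1.43 to 1.57).

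Reactive glia genes were higher in HIOP_GSK in 19 of 20 cases, none lower (median 2.4, and 2.41 in HIOP over the same CTL). Timp1, an inhibitor of matrix proteases, stood at 4.60, 169 and 174 CPM in CTL, HIOP and HIOP_GSK, 37.8-fold above CTL (30.0 to 48.3). Lcn2, the iron-binding lipocalin of reactive astrocytes, was at 13.9, 437 and 369 CPM, 26.6-fold (23.3 to 30.6). Nes, the filament of progenitors and reactive glia, was 29.3-fold higher (21.2 to 41.7) and S100a6 26.7-fold (20.3 to 35.7). Gfap, the classic filament of reactive Müller cells and astrocytes, had 580, 642 and 2470 counts, so that HIOP_GSK alone was clearly above CTL. Cd14 is also a monocyte gene, and it had 10, 152 and 324 counts.

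Genes that Müller glia use for their resting duties, clearing glutamate, potassium and retinoids, were often below control. Of 25 listed, 10 were lower and 2 higher (median -0.72). Hes5, a Notch target, had 84, 11 and 7 counts, 11.3-fold lower than CTL (5.27 to 29.1). Car14, a carbonic anhydrase, was at 107, 21.9 and 18.8 CPM, 5.67-fold lower (5.0 to 6.45), Rlbp1, which carries retinaldehyde, at 257, 43.1 and 60.1 CPM, 4.28-fold lower (3.98 to 4.60), and Abca8a was 4.24-fold lower (3.96 to 4.54). The potassium channel Kcnj10 had 312, 12 and 93 counts and the water channel Aqp4 3077, 655 and 1330, so that HIOP_GSK lay between HIOP and CTL. Glul, the glutamine synthetase of these cells, had 28101, 16119 and 16120 counts and was within 2-fold. The 2 higher members were Vim, 3.66-fold (3.53 to 3.80), and Clu, 2.78-fold (2.72 to 2.85), both of which are also induced in reactive glia. Lens genes made up 0.137% of the CTL counts and 1.65% of those of HIOP_GSK, and the part of lens tissue in these ratios was not tested. Sox2 and Sox9, which mark the cells' identity, had 710 and 846 counts in CTL and 872 and 1023 in HIOP_GSK. Of 8 astrocyte genes, S100b was 2.34-fold lower (2.05 to 2.67) and Id1 3.54-fold higher (2.93 to 4.30).

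Ganglion cell genes were below control in 20 of 22 cases, 9 of them by at least 2-fold, with a median log2 ratio of -0.96 (-1.04 in HIOP over the same CTL). Nrn1 was at 26.0 CPM in CTL, 7.77 in HIOP and 9.66 in HIOP_GSK, 2.69-fold lower (2.22 to 3.27). Opn4, the melanopsin of light-sensing ganglion cells, stood at 44.9, 18 and 18.5 CPM, 2.43-fold lower (2.12 to 2.80). The transcription factor gene Pou4f2 had 105, 33 and 44 counts, the surface protein gene Thy1 1569, 707 and 735, and the neurofilament gene Nefl 3971, 1828 and 1834. In each, the injured libraries were close to each other and below CTL. The 2 higher members are tied to growth and repair: Gap43, found in growth cones, had a ratio 2.97-fold above CTL (2.62 to 3.38), and Spp1, osteopontin, which macrophages also make, was 12.1-fold higher (10.0 to 14.8).

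Amacrine cells, the inhibitory interneurons of the inner retina, had 5 of 21 genes lower and none higher (median -0.75; -0.91 in HIOP). Calb2, a calcium buffer, was 2.09-fold lower (1.98 to 2.21), and the peptide genes Cartpt and Sst were 2.18-fold (1.92 to 2.49) and 2.81-fold lower (1.90 to 4.25). The acetylcholine genes of starburst cells had a different order: Chat had 259, 40 and 152 counts, Slc5a7 222, 22 and 121, and Slc18a3 97, 14 and 71, so that HIOP_GSK was closer to CTL than HIOP was. Of 9 genes listed for horizontal cells 2 were lower and 1 higher, and none of these is confined to that cell type. Pvalb, which in the rat is also a gene of amacrine cells, was 2.55-fold lower (2.17 to 3.02). Onecut1 was 2.13-fold lower (1.65 to 2.77), while Tpm3, which many cells express, was 2.10-fold higher (1.95 to 2.26).

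Bipolar cells carry signals from photoreceptors inward, and all of their 17 kept genes had a ratio below 1, with 2 at least 2-fold lower (median -0.68). Of all genes compared, 6.36% were lower. Car8 stood at 35.5, 22.7 and 15.6 CPM, 2.27-fold lower (1.95 to 2.65), and Vsx1 was 2.08-fold lower (1.73 to 2.51). Prkca, the kinase that labels rod bipolar cells, was 1.91-fold lower (1.84 to 2.0). All 20 kept genes of synaptic vesicles and ribbons were below CTL as well (median -0.65), although only Rims1 reached 2-fold, at 2.21-fold lower (2.02 to 2.41). Of 27 receptor genes for glutamate, GABA and glycine, 9 were lower and none higher (median -0.87). Glra3 was 3.68-fold (2.41 to 5.79) and Grin2c 2.94-fold lower (2.32 to 3.75). Of 22 ion channel genes, 6 were lower, including Kcna2 at 2.16-fold (2.03 to 2.31), and Kcnv2, a photoreceptor potassium channel subunit, was 2.09-fold higher (2.02 to 2.17). With the deposited TPM, Glra3 and Kcnv2 were under the 2-fold limit.

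Cone genes had the lowest median of the neuronal lists, -1.05, with 9 of 16 lower and 1 higher. Opn1mw, the opsin of green-sensitive cones, was at 50.1 CPM in CTL, 14.5 in HIOP and 6.11 in HIOP_GSK, 8.19-fold lower than CTL (6.60 to 10.3). Arr3, cone arrestin, was at 163, 21.1 and 22.2 CPM, 7.32-fold lower (6.54 to 8.22). Pde6c, the cone phosphodiesterase, was 2.91-fold lower (2.60 to 3.27) and Gnat2, cone transducin, 2.69-fold (2.47 to 2.93). CTL was the highest library for each of these 4 genes. Gnb3, the cone transducin beta subunit that bipolar cells also express, was the 1 exception, at 114, 200.2 and 285 CPM, 2.49-fold higher (2.36 to 2.64). Thrb, a transcription factor of cones, had 2122, 2061 and 1429 counts.

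Rods make up most photoreceptors of the rat, and their genes were lower in HIOP_GSK by smaller ratios, with a median of -0.54; in HIOP over the same CTL the median was -0.23. Of 20 members, 3 were called lower and none higher, and 16 had a ratio below 1. Gnb1, the beta subunit of transducin that other cells share, was at 3646, 2378 and 1704 CPM, 2.14-fold lower (2.11 to 2.17), and Reep6, needed for trafficking in rods, was at 606, 494 and 282 CPM, 2.14-fold lower (2.07 to 2.22). Nrl, the transcription factor that sets rod fate, was 1.93-fold lower (1.85 to 2.01). Pde6a and Sag did not share this pattern and were 1.17-fold (1.16 to 1.19) and 1.12-fold higher (1.10 to 1.13). The listed rod genes therefore spread over a range of log2 ratios from -1.1 to 0.23, and Gnb1 for 1 is not confined to rods.

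**Figure D4:**
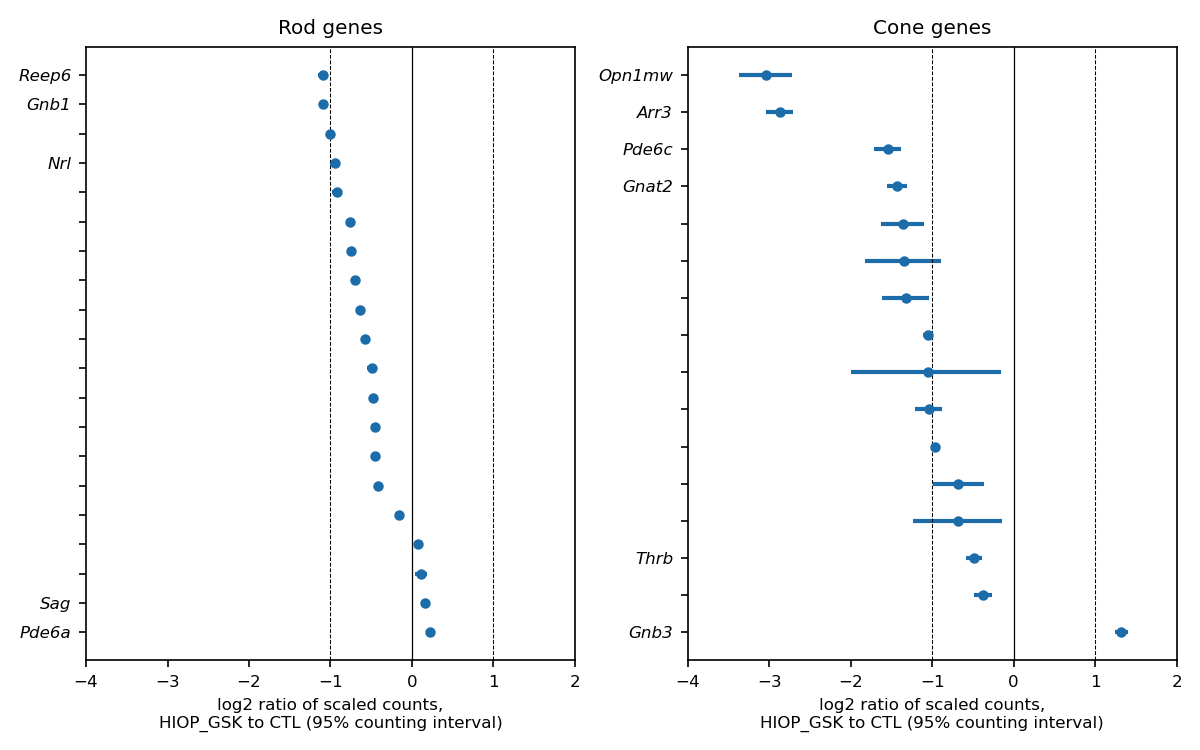
Log2 ratio of scaled counts of HIOP_GSK to CTL (x axis) for the 20 kept rod genes and the 16 kept cone genes; dots are ratios, the genes named in the text are labelled, bars are their 95% counting intervals (often narrower than the dot) and dashed lines mark 2-fold. Opn1mw and Arr3 lie furthest to the left and Gnb3 is the 1 gene beyond the upper 2-fold line.

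The motif TAATCC, to which the photoreceptor factor CRX binds, was searched in the same promoters on both strands. It was in 6.33% of all promoters, in 4.74% of those of genes compared and in 3 of 67 (4.48%) at least 4-fold lower, so its share there was near that of all genes compared. Of the rod promoters 5 of 15 held it, and of the cone promoters 3 of 9, 33.3% each.

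Vessel genes were mixed. Of 21 endothelial genes, 5 were higher and 2 lower (median 0.14), against 10.4% and 6.36% of all genes compared. Eng, a coreceptor for growth factors of the TGF-beta family, was at 12.1 CPM in CTL, 38.6 in HIOP and 56.7 in HIOP_GSK, 4.68-fold above CTL (4.0 to 5.50), and Vwf, a clotting factor of endothelium, was 2.95-fold higher (2.68 to 3.25). Mfsd2a and Slco1a4, transporters of the blood-retina barrier, were 3.97-fold (2.55 to 6.41) and 2.61-fold lower (2.21 to 3.09). The junction gene Cldn5 had 189, 87 and 142 counts. Of 14 pericyte and smooth muscle genes, 6 were lower, 1 was higher and 7 were within 2-fold (median -0.66). Acta2, smooth muscle actin, stood at 53.1, 14.2 and 14.4 CPM, 3.69-fold lower (3.18 to 4.30), Myl9 was 4.15-fold (3.17 to 5.49) and Mylk 3.04-fold lower (2.77 to 3.35). Cspg4, the pericyte proteoglycan NG2, was 2.31-fold higher (1.82 to 2.93), but under 2-fold with the deposited TPM.

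Matrix genes were higher in 20 of 33 cases and lower in none (median 1.22). Mmp10 had 1, 613 and 277 counts in CTL, HIOP and HIOP_GSK, a ratio of 293 (52.2 to 11615), and Plaur, the receptor that focuses plasmin at the cell surface, had 1, 381 and 247 counts, a ratio of 261 (46.5 to 10361). Mmp9, a gelatinase that neutrophils carry, had 11, 162 and 457 counts. Fn1, fibronectin, had 618, 1492 and 4178, and Thbs1, thrombospondin, 288, 2766 and 5434. Col4a1, a collagen of the basement membrane, was 1.77-fold lower (1.70 to 1.84), and the protease inhibitor gene Timp3 was 1.81-fold lower (1.69 to 1.93). AP-1, the factor that Fosl1 belongs to, binds TGANTCA. This motif was in 6.36% of all promoters, in 4.51% of those of genes compared, in 67 of 466 (14.4%) at least 4-fold higher, in 5 of 67 (7.46%) at least 4-fold lower and in 5 of 21 promoters of matrix genes (23.8%). Its share was similar in the promoters of chemokines (23.1%), of nuclear factor kappa B genes (23.5%) and of interferon-response genes (19.0%). The promoters of the 3 matrix genes furthest above control each hold it once and are shown with the match in capitals.
Mmp3, chr8:12925185-12925241, plus strand: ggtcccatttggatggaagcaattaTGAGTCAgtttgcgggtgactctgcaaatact
Mmp10, chr8:12974621-12974677, plus strand: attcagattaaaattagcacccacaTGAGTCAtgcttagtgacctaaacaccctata
Plaur, chr1:89181255-89181311, plus strand: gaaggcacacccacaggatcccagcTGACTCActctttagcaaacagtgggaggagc
The matches begin 71, 61 and 83 bases before the start site.

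Genes of tissues next to the retina also differed between these 2 libraries. Of 23 lens genes 21 were higher in HIOP_GSK and 1 lower, with a median log2 ratio of 3.59; in HIOP over the same CTL it was 1.48. Their summed share of the counts was 0.137% in CTL, 0.379% in HIOP and 1.65% in HIOP_GSK. Crygd was at 18, 161 and 1423 CPM, 79.3-fold above CTL (70.6 to 89.3), and Lgsn at 2.17, 15.6 and 204 CPM, 93.8-fold (67.3 to 135). Gamma crystallins are near-identical, and how reads were shared out between copies is uncertain. Of 15 genes of corneal and surface epithelium, 8 were lower and 1 higher (median -1.01; -2.05 in HIOP over the same CTL). Krt12, the keratin of corneal epithelium, was at 121, 3.27 and 16.4 CPM, 7.40-fold lower (6.49 to 8.48), and Kera, a matrix protein of the cornea, had 59, 0 and 1 counts, 55.8-fold lower (9.63 to 2239.8). Krt14 alone was higher, by 2.41-fold (1.64 to 3.58).

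Pigment epithelium genes were below control, with 6 of 16 lower and none higher (median -0.84). Rrh, an opsin of this layer, was at 87.4, 11.6 and 13.5 CPM, 6.46-fold lower (5.57 to 7.51). Tyr, the enzyme that starts melanin synthesis, was 3.01-fold lower (2.58 to 3.53) and Rpe65, which regenerates the visual chromophore, 2.20-fold (1.97 to 2.47). The 3 kept red blood cell genes were near control, with Hbb at 33.0, 66.6 and 37.3 CPM in CTL, HIOP and HIOP_GSK, 1.13-fold above CTL (1.0 to 1.28). In the list of iris and ciliary body genes 1 of 11 was higher and 2 lower (median -0.24), and in the myelin list none of 6 was called (median -0.24). Muscle and gland lists kept 4 and 3 genes. Leaving out every member of these neighbouring tissue lists left 1573 genes higher and 959 lower of 15321; other genes of those tissues stay in, and their part in the results was not tested.

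Genes of dividing cells were above control in HIOP_GSK. In the cell cycle list 18 of 29 were higher and none lower (median 1.26), where in HIOP over the same CTL 5 were higher (median 0.11). Rrm2, which makes DNA building blocks, stood at 0.435, 1.11 and 7.36 CPM, 16.9-fold above CTL (7.95 to 43.1). Top2a, a topoisomerase of dividing cells, was at 3.17, 2.28 and 27.5 CPM, 8.67-fold (6.47 to 11.8), and the mitotic kinase gene Aurkb was 13.5-fold higher (5.51 to 43.1). Ccnd1, the cyclin of the first gap phase, stood at 21.2, 85.4 and 135 CPM, 6.37-fold (5.68 to 7.17). HIOP_GSK was the highest library for each of these genes. The lens list, at 1.65% of counts, and the neutrophil and monocyte list, at 0.0290%, were also highest in HIOP_GSK, and their part in the result was not tested. Of 18 replication-dependent histone genes, 6 were higher and 1 lower (median 0.87), such as Hist1h3b at 3.63-fold (2.47 to 5.45); close copies make the split of their counts uncertain.

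Growth genes differed from control by small ratios. All 25 kept ribosomal protein genes were above CTL, 9 of them by 2-fold (median 0.87), including Rps2 at 156, 373 and 423 CPM, 2.71-fold (2.58 to 2.83); counting of this family is uncertain, since Rps6 had no count in either library. All 22 ribosome biogenesis genes were above CTL too (median 0.79), with Npm1, a nucleolar chaperone, at 2.55-fold (2.42 to 2.69). Energy genes lay near control. None of 19 nuclear genes of oxidative phosphorylation (median 0.14) and none of 12 mitochondrially encoded genes (median -0.34) differed 2-fold. Clock genes had none past the limit (median -0.3). Of 18 cholesterol synthesis genes 1 was higher and none lower (median -0.11).

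**Figure D5:**
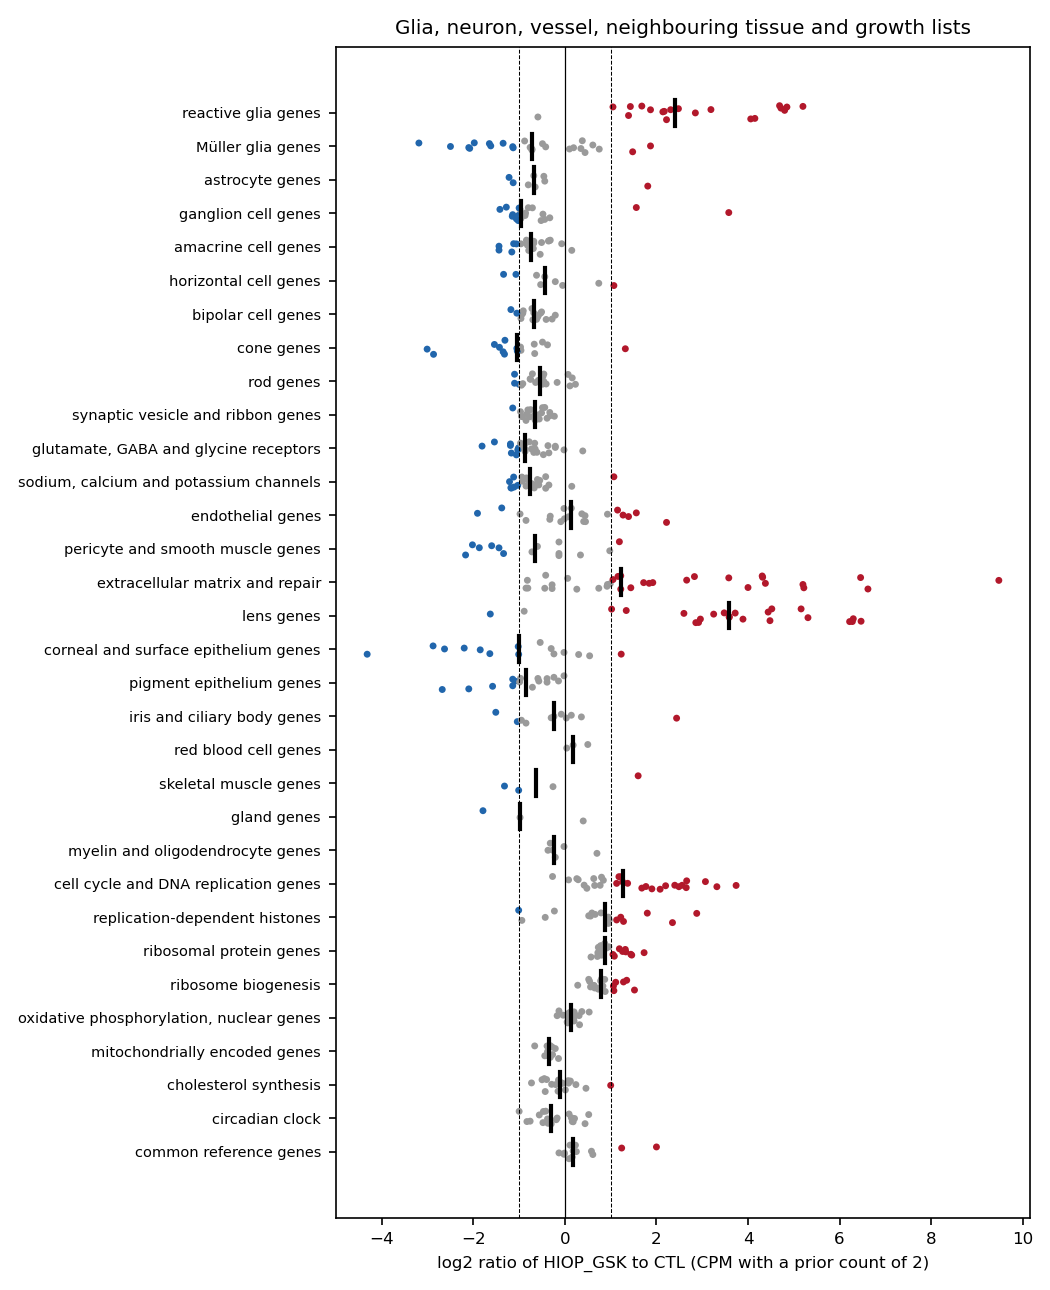
Log2 ratio of HIOP_GSK to CTL (x axis, CPM with a prior count of 2) for the kept members of 32 glia, neuron, vessel, neighbouring tissue and growth lists; dots are genes, red or blue where at least 2-fold higher or lower, black bars are medians and dashed lines mark 2-fold. Reactive glia, matrix, lens and cell cycle genes lie to the right, with medians of 2.4, 1.22, 3.59 and 1.26, and neuronal lists lie to the left by less than or close to 2-fold.

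Genes often taken as internal references were not all equal between the libraries. Of 13, 11 lay within 2-fold (median 0.18). Gapdh had 23217, 25057 and 21753 counts in CTL, HIOP and HIOP_GSK, and Sdha was 1.10-fold lower in HIOP_GSK (1.04 to 1.16). Actb, beta-actin, was 2.35-fold higher (2.30 to 2.41), and B2m, which is also a component of class I antigen presentation, 4.0-fold higher (3.75 to 4.26).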

How the data were processed

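Per the labels' protocols, directional libraries were made from 3 µg of ribosome-depleted RNA each. The submitters' processing notes name STAR 2.5.4b, RSEM 1.3.1 and the build Rnor_6.0. The authors deposited a whole-number count per gene, not normalized, and a TPM value scaled to a common total in every library. Among genes with 20 or more counts, 503 to 566 per library had a TPM of 0, so the deposited counts and TPM were quantified differently, and 161 genes called here had a TPM of 0 in both libraries. How strand was handled in counting is not given in the sources used here; overlapping and antisense genes are therefore uncertain. The analysis plan treated the counts as values to be rounded, which was not needed.

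Counts were scaled with TMM factors from edgeR 4.0.16 (1, 0.9941 and 1.006 for CTL, HIOP and HIOP_GSK). Intervals are exact Clopper-Pearson intervals; the floor of 3 counts equals 0.186, 0.175 and 0.197 CPM. The libraries carry no stated molecular identifiers, so reads may repeat the same molecule. The 53 gene lists (1026 distinct entries, some of them the same gene, which matched 970 genes by symbol and 11 more by a RefSeq synonym; 41 entries were not analysed here and 890 genes were kept) and the named genes were chosen with earlier results of these data known. Named were the 15 genes per direction with the most extreme interval bound, and per list up to 4 members by that bound and up to 2 of the opposite direction; other members are given to complete a pathway and were chosen after their values were seen. The functions were tested on simulated counts. Alternatives used total counts, TMM factors from both libraries alone, DESeq2 1.42.0 size factors, scaling without mitochondrial and the 20 most abundant genes, TPM with a pseudocount of 0.5, other filters, priors and limits. Promoters are RefSeq sequences on GRCr8, with 10594 of the genes compared matched by symbol. Some genes of these lists are counted but not reported here by name.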

Additional observations from a re-analysis of the deposited data

How the results depend on the processing

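Of 1597 higher and 979 lower genes, the counts stayed within 1.5 times under 4 other scalings, prior counts of 0.5 and 10, removal of the neighbouring tissue lists, and the deposited TPM with a pseudocount of 0.5, which gave 1292 higher and 1038 lower. They moved further with no filter (2534 higher and 1826 lower), with a filter at CPM 5 (1019 and 587), at a limit of 1.5-fold (2697 and 2569), at a limit of 4-fold (682 and 135), and where the whole 95% interval had to lie beyond 2-fold (1054 and 384). These are changes in which genes are tested or in the limit itself. No scaling shifted the median log2 ratio of the genes compared by more than 0.007, and TPM shifted it by -0.091. No named gene that was higher or lower changed direction, among 171 with a value in TPM, 156 at the CPM 5 filter and 179 in each other setting. Changes of direction among the named genes within 2-fold were not counted. With TPM, 8 of 171 called genes fell under 2-fold and 7 others reached it, and prior 10 took 6 of 179 under it. The ratio of Mmp10 on the log2 scale was 3.67 with TPM in place of 6.62, and the cause was not tested. Gnb3 had a log2 ratio of 1.01 with TPM. Of 17 list medians beyond 2-fold, 16 stayed there with TPM, with no filter and with the CPM 5 filter, 15 with prior 10 and 17 in each other setting. No paired analysis was possible because each group has 1 library. Counting error limits weakly expressed genes, whose interval below a mean of 2 CPM spanned a typical factor of 2.08 to either side, against 1.06 at 100 CPM and above.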

Other observations

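All genes compared that had a symbol, members of the lists included, were grouped by the start of their symbol. The families named here were chosen after their values were seen. Of their members, 2 Toll-like receptor genes and 7 collagen genes are also in a list. Of 9 kept Toll-like receptor genes, which sense microbial and damage signals, 8 exceeded CTL by 2-fold or more in HIOP_GSK and none was lower. Tlr2 had 16 counts in CTL, 306 in HIOP and 239 in HIOP_GSK, 15.8-fold above CTL (95% counting interval 9.53 to 28.1), and Tlr13 had 23, 173 and 226, 10.4-fold above CTL (6.76 to 16.7). Tlr3 stayed within 2-fold, at 93, 145 and 100 counts. Of 10 annexins, which bind membranes in the presence of calcium, 6 were higher and none lower, with Anxa2 at 526, 3173 and 3308 counts. Of 37 collagen genes, 10 were lower, 1 was higher and the others were within 2-fold, where 6.36% of all genes compared were lower. Col2a1 had 1435, 249 and 293 counts, 4.63-fold below CTL (4.08 to 5.27), and Col9a1 had 2475, 671 and 657, whereas Col3a1 was the 1 higher collagen, at 398, 568 and 876.

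Among single genes, also chosen after their values were seen, Plin2, which coats lipid droplets, was at 10.7 CPM in CTL, 323 in HIOP and 238 in HIOP_GSK. Fabp5, a fatty acid carrier, was at 52.6, 101 and 515 CPM, so that HIOP_GSK stood apart from both other libraries. The lens list had the same order, at 0.137%, 0.379% and 1.65% of counts, and the part of lens tissue in the Fabp5 values was not tested.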
